A study of Mus musculus with 4 samples.

Results

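The largest T cell clone of the library labelled dKO was described, a set of hepatic CD4+ T cells that carried the same receptor alpha chain (TRAV6-1 joined to TRAJ30) and the same receptor beta chain (TRBV13-1 joined to TRBJ2-4). For each cell and chain the contig with the most unique molecular identifiers (UMIs, tags that mark single captured RNA molecules) was kept, and cells with identical V gene, J gene and CDR3 bases in both chains were counted as 1 clonotype. The clone held 281 of the 2420 dKO cells with both chains, among 28247 cells in the matrices of the series. It was set against the 377 dKO cells that had a receptor seen in no other cell and at least 1 UMI of Foxp3, which are called single-cell clonotypes here.

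CD4+ T cells were sorted from the livers of WT mice and of dKO mice, whose genotype was Nr4a1 fl/fl and Nr4a2 fl/fl with Cd4Cre. In the latter the Cd4 promoter drives Cre, which is meant to delete both genes in all T cells that have passed through a CD4 stage. All mice were male and received a choline-deficient diet with 60 kcal% fat and 0.1% methionine for 8 weeks to induce steatohepatitis. Cells of 2 mice were pooled into 1 library per genotype and read by 5′ droplet RNA sequencing with receptor enrichment. Cells of the pooled mice cannot be told apart, so a clone may stem from 1 mouse and the single-cell clonotypes from both, and a difference between them cannot be told apart from a difference between the mice. With 1 library per genotype no test across samples was possible, and all intervals below are 95% intervals that cover counting error alone.

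The dKO matrix held 17645 cells, of which 17462 with more than 200 genes and under 5% mitochondrial UMIs were kept, with 37794986 UMIs in all. A receptor contig was found in 4897 of them. Nr4a1 and Nr4a2 stood at 725 and 183 CPM (UMIs per 1000000 UMIs of the group) in the library labelled WT and at 1659 and 306 CPM in the library labelled dKO, so the level of the targeted genes went against the label, although the counts do not show which exons the reads came from. The dKO matrix shared 245 barcodes with the WT matrix. Among them were 3 barcodes of the clone, and none of the 281 was in the WT contig table.

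A T cell assembles its receptor once, by joining V, D and J segments with bases added or removed at the junctions, and passes it to its daughters. Cells with an identical pair of chains are therefore taken to descend from 1 cell. Regulatory T cells (Tregs) are CD4+ T cells defined by the transcription factor Foxp3, and they restrain other immune cells through receptors such as CTLA-4 and TIGIT and through cytokines such as IL-10. In tissues such as the liver they can expand locally and take on an effector state.

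The CDR3, the loop encoded across the junction, identifies the clone and is shown for each chain, with the bases in capitals that match neither the germline V nor the germline J segment.
Clone TRA CDR3: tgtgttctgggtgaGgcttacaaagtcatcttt
Clone TRB CDR3: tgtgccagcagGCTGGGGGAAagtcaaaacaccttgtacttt

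The alpha CDR3 had 33 bases, of which 14 matched TRAV6-1 (chr14:52638515-52638962 on GRCm38, + strand) and 18 matched TRAJ30 (chr14:54189866-54189924, + strand), which left 1 base between them. The beta CDR3 had 42 bases, with 11 from TRBV13-1 (chr6:41116007-41116468, + strand), 21 from TRBJ2-4 (chr6:41543362-41543410, + strand) and 10 in between, and a run of 7 of those 10 matched the D segment TRBD2. The alpha junction thus held fewer bases outside the V and J matches than the beta junction. All 395 alpha contigs and all 475 beta contigs with these CDR3s had 1 sequence from the start of V to the end of the CDR3. They had a median of 4 UMIs for either chain. TRAV6-1 was an uncommon choice, used by 0.598% of the 1170 dKO single-cell clonotypes with or without Foxp3, whereas TRBV13-1 was used by 9.23%.

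The closest other chains in the dKO library are shown with the bases that differ from the clone in capitals.
Nearest TRA CDR3: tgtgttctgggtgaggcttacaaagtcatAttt
Nearest TRB CDR3: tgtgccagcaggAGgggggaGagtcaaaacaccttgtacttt

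The nearest alpha chain used the same V and J segments, differed at 1 base and encoded the same amino acids. It was found in 1 cell, which had another beta chain (TRBV3 with TRBJ1-2) and a Foxp3 UMI. The nearest beta chain differed at 3 bases and 1 residue, and was found in 2 cells with another alpha chain (TRAV6-5 with TRAJ37) and no Foxp3 UMI. In the WT library the nearest alpha chain of the same length differed at 9 bases and the nearest beta chain at 4.

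The clone made up 11.6% of dKO cells with both chains (interval 10.4 to 13.0) and 22.5% of the 1250 cells in clonotypes of 2 or more cells. The next clone had 61 cells, and the clones of rank 3 to 6 had 35, 30, 27 and 26 cells. The largest WT clone held 70 cells, or 3.22% of 2175 WT cells with both chains. Both chains of the dKO clone were found in none of those 2175 WT cells, which allows a share of up to 0.138%. Its beta chain was in 0 of 3455 WT cells with a TRB contig, and its alpha chain in 0 of 2561 with a TRA contig.

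**Figure D1:**
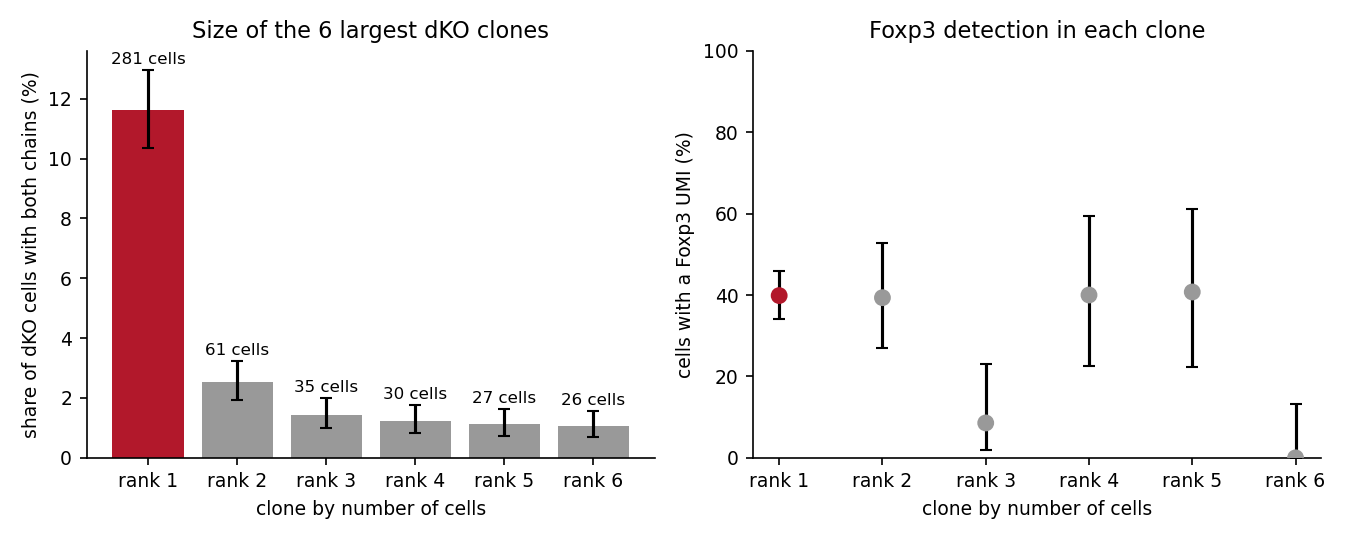
Left, bars give the share of dKO cells with both chains in each of the 6 largest clones (%), with the number of cells above. Right, points give the share of cells of each clone with at least 1 Foxp3 UMI (%); lines are 95% exact binomial intervals in both panels. The largest clone stands at 11.6% against 2.52% for the next, and its Foxp3 share of 39.9% lies beside those of the clones of rank 2, 4 and 5.

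Of the cells with the beta chain of the clone and any alpha chain, 0 of 281 had another alpha chain, which allows up to 1.07%. Of those with its alpha chain and any beta chain, 1 of 282 had another beta chain. No clone cell held a second TRA or a second TRB contig (0 of 281 for each), whereas 29 of the 377 single-cell clonotypes (7.69%) held a second TRB. Both groups were chosen by how often their pair of chains was seen, so this contrast is not independent of that choice. Another 113 cells had only the alpha chain and 194 only the beta chain, with no contig for the other, so their pairing could not be read. Together with these 307 cells, 588 of the 4897 dKO cells with a contig (12.0%) carried both chains of the clone, or 1 of them with no contig for the other.

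The V genes are also counted in the expression matrix. Clone cells were chosen by contigs of these V genes, so UMIs of them in the same cells follow from that choice. Their shares show how often the matrix detects V genes that a cell carries. Trav6-1 had a UMI in 89.3% of clone cells (interval 85.1 to 92.7) against 2.92% of single-cell clonotypes, and Trbv13-1 in 92.9% against 15.1%. UMIs of both V genes were found in 232 of the 281 clone cells, in 117 of the 307 cells with only 1 chain and in 8 of the 377 single-cell clonotypes. Of the 12565 dKO cells without any contig, 386 (3.07%) had UMIs of both. In the WT library 0 of 10556 cells, with or without a contig, had both, which allows up to 0.0284%. Trav6-1 itself had a UMI in only 14 of those WT cells (0.133%). Among dKO droplets that had no contig and held markers of myeloid or plasmacytoid dendritic cells, which should lack these receptors, 37 of 4400 (0.841%) had both, and their median depth was 2992 UMIs against 1515.5 in the 386 cells. How many of the 386 belong to the clone cannot be told from V gene UMIs, since droplets of other cell types and single-cell clonotypes with other receptors had such UMIs too.

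**Figure D2:**
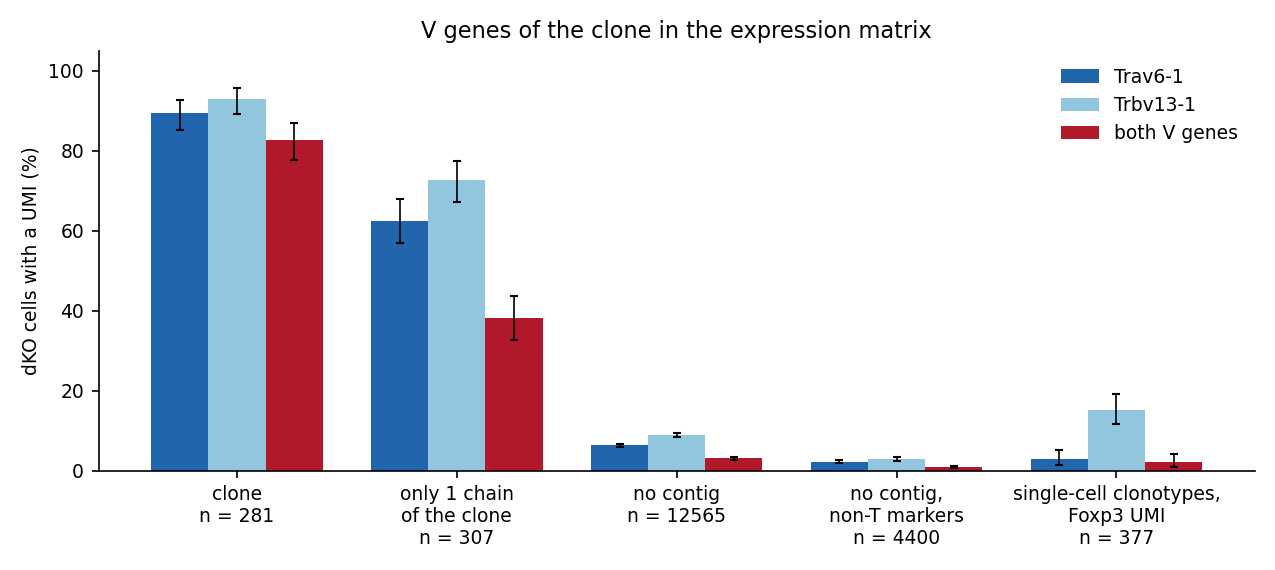
Bars give the share of dKO cells (%) with a UMI of Trav6-1, of Trbv13-1 and of both V genes in the expression matrix, for 5 groups with the number of cells below each, and lines are 95% exact binomial intervals. Both V genes were found in 82.6% of clone cells and 38.1% of cells with only 1 chain, against 3.07% of cells without a contig, 0.841% of those with non-T markers and 2.12% of single-cell clonotypes.

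Clone cells were shallower than the cells they were compared with, and some droplets of both groups held RNA of another cell type. The median was 1424 UMIs per cell in the clone (range 614 to 12320) and 2792 in the single-cell clonotypes, which had to show a Foxp3 UMI. In 37 of the 281 clone droplets (13.2%), at least 3 UMIs of myeloid or plasmacytoid dendritic cell markers were counted, and in 31 of the 377 single-cell clonotypes (8.22%). They are called mixed droplets, since 36 of the 37 also had a UMI of Cd3e, Cd3d or Cd3g. Their median depth was 4288 UMIs. The 9 myeloid markers summed to 3591 CPM in the clone and 129 CPM in the single-cell clonotypes, and to 83.7 and 55.4 CPM once mixed droplets were left out. Of the 2167 myeloid UMIs in the clone, 2 droplets held 1587 and 414 (92.3%), and without these 2 the sum was 284 CPM. The 6 plasmacytoid dendritic cell markers summed to 1274 and 458 CPM, and to 72.4 and 46.0 CPM without mixed droplets. Hepatocyte markers were at 0 for 5 of 6 genes in the clone (sum 3.31 CPM), and natural killer or NKT markers for 3 of 4 (sum 1.66 CPM). The 5 B cell markers summed to 134 CPM, with 3 at 0, and the 4 endothelial markers to 64.6 CPM, with 1 at 0. The 2 CD8 markers summed to 101 CPM in all clone droplets, mostly Cd8b1, and to 31.7 CPM without mixed ones, and Cd8a had 1 UMI. Counts of genes apart, and some genes and lists, are therefore given with and without mixed droplets, a choice made after the data were examined. Other values include mixed droplets unless the text says otherwise.

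The Treg markers of the clone were checked first. The 4 T cell markers summed to 4345 CPM in the clone and 3388 CPM in the single-cell clonotypes, and the 6 Treg markers to 5606 and 5061 CPM. Foxp3 had 181 UMIs in 112 of the 281 cells (39.9%, interval 34.1 to 45.8), and Tigit, the inhibitory receptor that marks activated Tregs, had 669 UMIs in 218 cells. After each cell was thinned to 1000 UMIs, 26.1% of 230 clone cells had a Foxp3 UMI (interval 20.5 to 32.3) against 2.4% of droplets with myeloid or plasmacytoid dendritic cell markers and no contig. For Tigit these shares were 62.2% and 8.1%. Before thinning the median depths were 1424 and 2992 UMIs, and the shares with a Foxp3 UMI 39.9% and 6.70%. Thinning left out 51 clone cells under 1000 UMIs. Both shares lay far above those in the droplets that should lack the genes. The distance to other dKO cells was smaller. Before thinning, 32.2% of the 1170 dKO single-cell clonotypes with or without Foxp3 had a Foxp3 UMI. Among unmixed dKO cells with no contig and without UMIs of both V genes, 24.4% had a Foxp3 UMI and 48.1% a Tigit UMI. Foxp3 stood at 300.0 CPM in the clone and Tigit at 1109 CPM.

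Of the 10 genes of the Treg core, 7 were within 2-fold of the single-cell clonotypes and 3 were at least 2-fold lower, against 2.33% of all genes. Ctla4, the inhibitory receptor that binds CD80 and CD86, stood at 2188 CPM in the clone and 1897 CPM in the single-cell clonotypes, a log2 ratio of 0.21 (interval 0.11 to 0.30). Tnfrsf18, which encodes GITR, stood at 1238 and 832 CPM (log2 ratio 0.57, interval 0.44 to 0.71). Ikzf2, which encodes Helios, was at 684 and 976 CPM (log2 ratio −0.51, interval −0.67 to −0.35). These 3 differences exceeded counting error but stayed under 2-fold. The 3 lower genes were led by Il2ra, the high-affinity IL-2 receptor chain CD25, at 87.8 against 215 CPM (log2 ratio −1.29, interval −1.74 to −0.87), found in 38 of the 281 cells. Nrp1, a receptor common on thymus-derived Tregs, was at 21.5 against 55.9 CPM, and Lrrc32, which presents latent TGF-β, at 24.9 against 59.7 CPM. Among cells with 800 to 1600 UMIs Lrrc32 did not differ by 2-fold (log2 ratio −0.053), on 6 and 3 UMIs without mixed droplets. The median log2 ratio of the list was −0.30 (−0.14 without mixed droplets), beside 0.03 over all genes. Foxp3 itself had to be present in every single-cell clonotype, so its lower level in the clone (log2 ratio −0.88) describes that choice. With Foxp3 required in both groups the ratio was 0.19. That value follows from the choice of cells too, since 1 required UMI weighs more in shallower cells. Median depths were 1769.5 UMIs in clone cells with a Foxp3 UMI and 2792 in the single-cell clonotypes. Neither ratio therefore measures a difference in Foxp3.

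Across the transcriptome the clone differed from the single-cell clonotypes in a limited set of genes. Genes were compared if 1 group had at least 50 CPM and neither had under 10 UMIs. Of 3650 such genes, 116 (3.18%) were at least 2-fold higher in the clone and 85 (2.33%) at least 2-fold lower. Without mixed droplets, 86 of 3621 (2.38%) were higher and 97 (2.68%) lower, which included 47 of the 116 and 67 of the 85. Among cells with 800 to 1600 UMIs, 27 of 1520 genes (1.78%) were higher and 89 (5.86%) lower, and these included 6 of the 116 and 10 of the 85. Of the 15 genes highest in the clone, 4 were still among the 15 highest without mixed droplets (Ccr3, Klrg1, Eif2ak2 and Mt2), as were 10 of the 15 lowest. Lyz2, C1qa, C1qb, Apoe and Klk1 among the highest genes are on the marker lists that define mixed droplets, so their fall without these follows from that choice. Of highest genes outside the lists, Alox5ap, which serves leukotriene synthesis, had 108 of its 109 clone UMIs in mixed droplets, and Clec12a, a lectin-like receptor of myeloid cells, and Mzb1, an endoplasmic reticulum protein of B cells and plasmacytoid dendritic cells, had all 45 and all 34. Lyz2, the lysozyme of macrophages, had a log2 ratio of 4.66 in all droplets and 0.82 (interval −0.49 to 2.08) without the mixed ones, at 22.6 against 12.8 CPM.

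**Figure D3:**
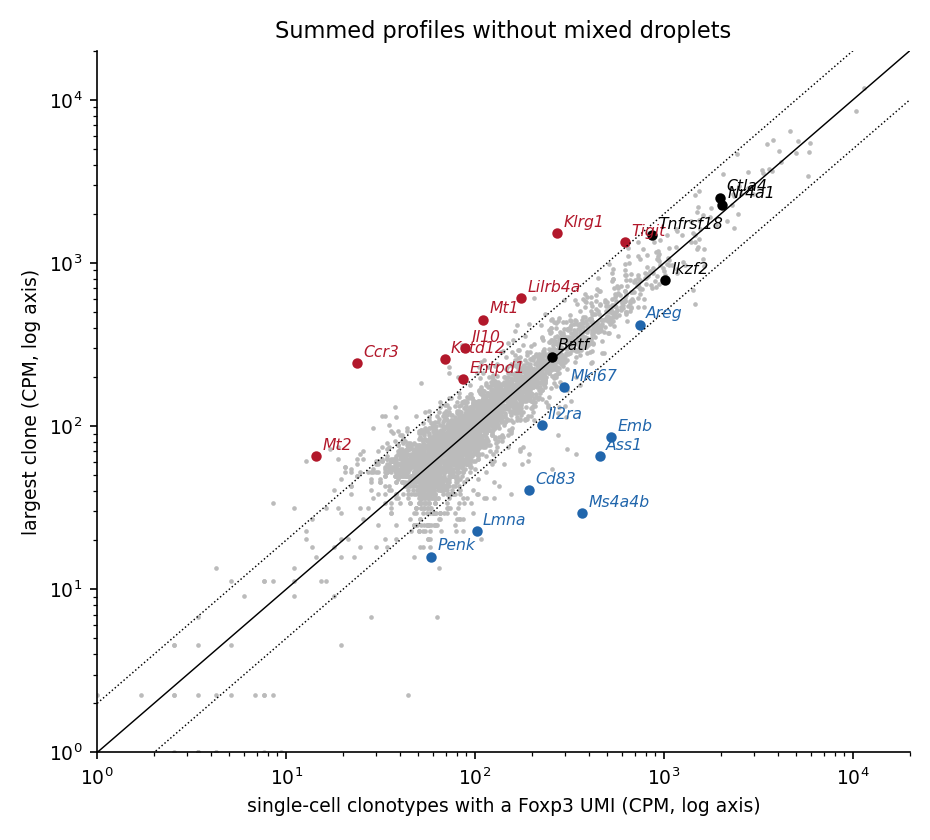
Each point is a gene, with its CPM in single-cell clonotypes with a Foxp3 UMI on the x axis and in the largest clone on the y axis, both log axes, mixed droplets left out; levels under 1 CPM are drawn at 1. The solid line marks equal levels and the dotted lines 2-fold. Ccr3 and Klrg1 lie far above the upper dotted line, Ms4a4b, Ass1 and Emb far below the lower one, and Ctla4, Nr4a1 and Batf near the solid line.

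Among genes higher in the clone, Ccr3 and Klrg1 had the largest ratios once mixed droplets were left out. Ccr3, a receptor for eotaxin chemokines best known from eosinophils and Th2 cells, had 121 UMIs in 80 clone cells against 31 UMIs in 25 of the single-cell clonotypes, at 201 (interval 166 to 240) and 23.4 CPM. This was a log2 ratio of 3.10 (interval 2.52 to 3.72), and of 3.36 without mixed droplets. Klrg1, an inhibitory lectin-like receptor of differentiated effector T cells, stood at 1332 (interval 1242 to 1428) and 254 CPM, a log2 ratio of 2.39 (interval 2.21 to 2.58). It was found in 243 of the 281 clone cells and 127 of the 377 single-cell clonotypes. After thinning to 1000 UMIs, Klrg1 was found in 73.9% of clone cells, 21.3% of single-cell clonotypes and 2.5% of droplets with non-T markers. For Ccr3 these shares were 16.5%, 2.2% and 0.6%. Cells with only 1 chain of the clone, whose second chain was not recovered, gave log2 ratios of 3.44 for Ccr3 and 2.45 for Klrg1 over the single-cell clonotypes without mixed droplets.

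Several other genes were also higher in the clone. Mt1, a metal-binding metallothionein, stood at 379.5 and 102 CPM (log2 ratio 1.90, interval 1.58 to 2.21), and Mt2 of the same family at 53.0 and 12.8 CPM. In cells with only 1 chain of the clone, mixed droplets left out, the log2 ratios were 1.38 for Mt1 and 0.82 for Mt2, the latter within 2-fold. Among cells with 800 to 1600 UMIs the ratio of Mt1 was 6.19, on 1 UMI in the single-cell clonotypes without mixed droplets. Eif2ak2, the kinase PKR that is activated by double-stranded RNA, stood at 59.7 and 13.6 CPM (log2 ratio 2.13), and had a log2 ratio of 1.003 in cells with only 1 chain of the clone, mixed droplets left out. Kctd12, known as a subunit of GABA-B receptors, was at 273 and 80.1 CPM (log2 ratio 1.77, interval 1.41 to 2.14). The inhibitory receptor gene Lilrb4a was at 522 and 171 CPM (log2 ratio 1.61), and Lilr4b at 263 and 84.6 CPM, but these neighbours are near-identical in sequence and reads could be split between them. Ccr1, a receptor for CCL3 and CCL5 that lies near Ccr3 in the genome, stood at 63.0 and 25.7 CPM (log2 ratio 1.29, interval 0.59 to 2.01). Metrnl, which encodes a secreted protein, stood at 147 and 56.6 CPM (log2 ratio 1.38, interval 0.92 to 1.84).

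Of 19 compared genes of the effector Treg state, 3 were at least 2-fold higher (against 3.18% of all genes) and 2 at least 2-fold lower (against 2.33%). Their median log2 ratio was 0.45 (0.62 without mixed droplets), and 0.032 when the clone was set against the other clones of at least 30 cells. Those are the clones of rank 2, 3 and 4, with 61, 35 and 30 cells, whose CPM were averaged. In rank 3 only 3 of the 35 cells had a Foxp3 UMI. Il10, the anti-inflammatory cytokine, stood at 247 and 87.6 CPM (log2 ratio 1.495, interval 1.14 to 1.86) and was found in 90 clone cells and 65 single-cell clonotypes. Among cells with 800 to 1600 UMIs its log2 ratio was 0.71, and against the other clones of at least 30 cells it was 0.42, both under 2-fold. Entpd1, the ectonucleotidase CD39, stood at 181 and 89.1 CPM (log2 ratio 1.02, interval 0.63 to 1.41). Klrg1 was the remaining gene past 2-fold. Tigit stood at 1109 and 590 CPM, short of 2-fold at a log2 ratio of 0.91 (interval 0.76 to 1.06), and at 1.12 without mixed droplets. Lag3, an inhibitory receptor for MHC class II, stood at 186 and 92.9 CPM (log2 ratio 0.999, interval 0.62 to 1.38, just under the limit). Gzmb, the protease granzyme B, stood at 378 and 230.3 CPM (log2 ratio 0.71, interval 0.46 to 0.97). Batf, a transcription factor of effector Tregs, stood at 222 and 247 CPM, with an interval of the log2 ratio from −0.45 to 0.14. The 2 lower genes were Penk, which encodes proenkephalin, at 16.6 against 82.3 CPM, and Nt5e, the ectonucleotidase CD73, at 34.8 against 71.0 CPM (log2 ratio −1.03, and −0.90 without mixed droplets). Penk rested on 10 UMIs in 3 clone cells. It stood at a log2 ratio of 0.63 in cells with only 1 chain of the clone, mixed droplets left out.

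The genes lowest in the clone were led by Ms4a4b, Ass1 and Emb. Ms4a4b, a membrane protein of T cells, had 14 UMIs in 10 of the 281 clone cells against 466 UMIs in 162 of the 377 single-cell clonotypes, at 23.2 and 352 CPM (log2 ratio −3.92, interval −4.81 to −3.16). Ass1, the enzyme argininosuccinate synthase, stood at 61.3 and 436 CPM (log2 ratio −2.83, interval −3.35 to −2.35). Emb, which encodes the adhesion protein embigin, stood at 87.8 and 507 CPM (log2 ratio −2.53, interval −2.96 to −2.12). Cd83, an activation marker that stabilizes MHC class II at the surface, stood at 38.1 and 181 CPM (log2 ratio −2.25), and Lmna, the nuclear lamin A and C gene, at 23.2 and 95.9 CPM (log2 ratio −2.05). All 5 stayed more than 2-fold lower without mixed droplets, with log2 ratios from −3.66 for Ms4a4b to −2.18 for Lmna. H2-Aa, an MHC class II chain, was higher in all clone droplets (log2 ratio 1.39) and lower without mixed ones (−2.01, interval −2.82 to −1.29), with 3186 CPM in mixed clone droplets and 38.5 CPM in the others. Without mixed droplets, cells with only 1 chain of the clone gave a log2 ratio of −0.81 over the single-cell clonotypes, within 2-fold. Cells with no contig and UMIs of both V genes gave 0.049, and cells with 800 to 1600 UMIs −0.64, on 9 and 7 UMIs.

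Of 8 compared genes of resting and recirculating T cells, 3 were at least 2-fold lower (against 2.33% of all genes) and 0 higher (against 3.18%), with a median log2 ratio of −0.68. S1pr1, the receptor that guides T cells out of tissue, stood at 21.5 and 75.5 CPM (log2 ratio −1.81, interval −2.77 to −0.97). The transcription factor genes Bach2 and Lef1 had log2 ratios of −1.60 (interval −2.31 to −0.94) and −1.41 (interval −2.27 to −0.63). In cells with only 1 chain of the clone these were −0.56 and −0.32, within 2-fold, and Bach2 stood at −0.79 among cells with 800 to 1600 UMIs. Against the other clones of at least 30 cells the median of the list was 0.85, with S1pr1 at 1.26 and Bach2 at 0.71, so the lower level was not seen there. The ratio of S1pr1 rests on few UMIs, since 3 UMIs would give 25.2, 24.6 and 55.7 CPM in these clones.

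Of 7 compared genes of tissue repair Tregs 1 was at least 2-fold lower (against 2.33% of all genes) and 0 higher (against 3.18%), with a median log2 ratio of −0.07. Areg, the growth factor amphiregulin, was at 338 and 700.1 CPM (log2 ratio −1.05, interval −1.28 to −0.83), and within 2-fold without mixed droplets (−0.83). It was found in 52 clone cells and 189 single-cell clonotypes. Il1rl1, the IL-33 receptor ST2, stood at 63.0 and 77.0 CPM, with an interval of the log2 ratio from −0.87 to 0.26.

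Of genes that follow receptor signalling, 0 of the 13 compared early genes passed 2-fold, a count near the share of all genes (3.18% higher and 2.33% lower), and their median log2 ratio was 0.13. Nr4a1 stood at 2088 and 2016 CPM (log2 ratio 0.05, interval −0.05 to 0.15), Nr4a3 at 275 and 252 CPM (interval −0.15 to 0.40), and Junb, an AP-1 subunit, at 2320 and 2528 CPM (log2 ratio −0.12, interval −0.22 to −0.03). None of 12 genes of proximal receptor signalling, 13 cytokine receptors and feedback genes, 8 survival genes or 5 helper lineage regulators passed it either. None of 3 compared cytotoxic genes did. Of 12 heat shock and stress genes the 2 metallothioneins did, with a median of 0.35, and of 7 interferon response genes only Bst2, which tethers virus particles, did (log2 ratio 1.0043), and it stood at 0.34 without mixed droplets. None of the 12 effector cytokines reached the limits for comparison, and 4 had no UMI in the clone. Ifng had 9 UMIs and Tnf 23 UMIs there.

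Of 15 compared genes of chemokine receptors and adhesion, 2 were at least 2-fold higher (against 3.18% of all genes) and 2 at least 2-fold lower (against 2.33%), with a median log2 ratio of 0.02. Cxcr6, the receptor for CXCL16 on liver-resident lymphocytes, stood at 512 and 203 CPM (log2 ratio 1.33, interval 1.09 to 1.58). Itgb1, the integrin β1 chain, had a log2 ratio of −1.23 (interval −1.62 to −0.85), and Gpr183, an oxysterol receptor, of −1.02 (interval −1.67 to −0.42).

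Among chemokine ligands, Ccl4 stood at 2507 and 693 CPM in all droplets but at 590.4 and 295 CPM without mixed ones. Its UMIs came from 76 clone cells, and 77.8% of droplets with non-T markers had a Ccl4 UMI at 1000 UMIs. Cxcl10, a ligand of CXCR3, stood at 19.9 and 101 CPM (log2 ratio −2.35, interval −3.34 to −1.50).

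Cell cycle genes were lower in the clone. All 15 genes of the list had a ratio below 1 and 8 were at least 2-fold lower, against 2.33% of all genes, with a median log2 ratio of −1.18. Mki67, which marks dividing cells, had 84 UMIs in 21 of the 281 clone cells (7.47%) and a UMI in 71 of the 377 single-cell clonotypes (18.8%), at 139 and 273 CPM (log2 ratio −0.97, interval −1.33 to −0.63). Ube2c, a ubiquitin-conjugating enzyme of mitotic exit, had 32 UMIs in 7 clone cells (log2 ratio −2.43). After thinning to 1000 UMIs, Mki67 was found in 5.2% of clone cells and 11.3% of single-cell clonotypes. In cells with only 1 chain of the clone, mixed droplets left out, the median of the list was −2.57. Among cells with 800 to 1600 UMIs the list did not show the lower level, with a median of 0.53 (0.089 without mixed droplets). Most of its genes had few UMIs there, such as 3 and 1 of Mki67 and 0 and 1 of Ube2c without mixed droplets. Hmgb2, a chromatin protein and one of the 8 lower genes, had 61 and 17 UMIs and turned to a log2 ratio of 0.84. The part of depth in this difference was not tested.

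The same genes were read in the next 5 clones of the dKO library. Foxp3 had a UMI in 39.3% of the 61 cells of rank 2, 12 of the 30 of rank 4 and 40.7% of the 27 of rank 5, near the 39.9% of the largest clone. It was found in 8.57% of the 35 cells of rank 3 and in 0 of the 26 cells of rank 6. Ccr3 had a level of 16.8 CPM in rank 2, and no UMI in ranks 3, 4, 5 and 6, where 3 UMIs would give 24.6, 55.7, 62.3 and 50.2 CPM. Klrg1 stood at 50.5 CPM in rank 2, 139 in rank 3, 62.3 in rank 5 and 50.2 in rank 6, with no UMI in rank 4, against 1332 CPM in the largest clone. High Klrg1 and Ccr3 were therefore seen in none of the 5 other clones. Tigit, in contrast, stood between 500.4 and 1287 CPM in all of them, and Entpd1 between 143 and 223 CPM. Ms4a4b was low in rank 2 (16.8 CPM) and rank 4 (37.2 CPM) and stood at 145 CPM in rank 5 and at 1001 and 1623 CPM in ranks 3 and 6. Emb stood between 50.2 and 125 CPM in all 5, near the 87.8 CPM of the largest clone. Il2ra was at or under 42.1 CPM in all 5 clones, against 87.8 CPM in the largest clone. In ranks 4, 5 and 6 this is under 3 UMIs (55.7, 62.3 and 50.2 CPM), so a lower level is not shown there.

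**Figure D4:**
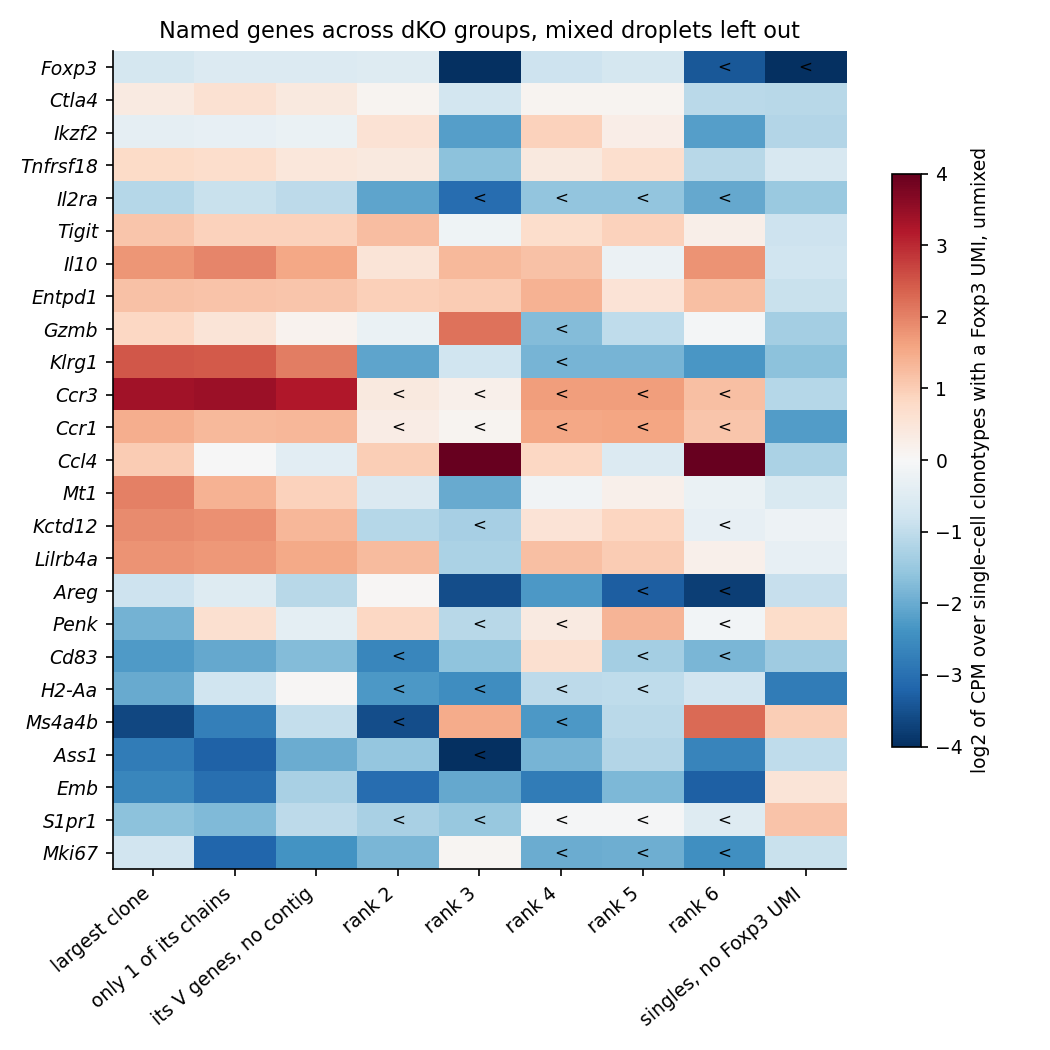
Colours give the log2 of the CPM of each gene (rows) in each dKO group (columns) over its CPM in single-cell clonotypes with a Foxp3 UMI, mixed droplets left out and values beyond 4 drawn at 4. Cells marked < held under 3 UMIs, and levels under 3 UMIs are drawn at 3 UMIs, so a marked red cell is an upper limit and no rise. Ccr3 and Klrg1 are red in the first 3 columns, which are the clone and the cells with 1 of its chains or its V genes, while Emb and Ass1 are blue in most clones.

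The cells without a contig allowed the same genes to be read in cells that the choice of the clone had not used. Mixed droplets left out, 155 of them had a Foxp3 UMI and UMIs of both V genes, with a median of 1852 UMIs, and were set against 1904 others with a Foxp3 UMI and a median of 1358.5. This comparison was added after the data were examined. Of 3580 genes, 16 (0.447%) were at least 2-fold higher and 24 (0.67%) at least 2-fold lower. Ccr3 led the higher genes, at 175 and 53.5 CPM (log2 ratio 1.71, interval 1.28 to 2.12), and Klrg1 stood at 1060 and 485 CPM (log2 ratio 1.13, interval 0.97 to 1.29). Ccr1 had a log2 ratio of 1.41 (interval 0.72 to 2.06), and Lgmn, the lysosomal protease legumain, of 1.66 (interval 0.99 to 2.29). H2-Aa (−2.42, interval −3.49 to −1.53), Penk (−1.96, interval −2.89 to −1.18) and Cd83 (−1.69, interval −2.31 to −1.13) led the lower genes. Of the 86 genes at least 2-fold higher in the clone without mixed droplets, 58 could be compared here, 52 had the same sign and 4 passed 2-fold, namely Ccr1, Ccr3, Klrg1 and Lgmn. Of the 97 lower genes 67 could be compared, 42 had the same sign and 5 passed 2-fold, namely Bach2, Cd83, H2-Aa, Lrrc32 and Nrn1.

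Other differences were smaller there or not detectable. Ms4a4b stood at 180.2 and 193 CPM (log2 ratio −0.10, interval −0.48 to 0.26) and Mt1 had a log2 ratio of −0.09 (interval −0.44 to 0.26). Ass1 stood at −0.61 (interval −1.03 to −0.21) and Emb at −0.34 (interval −0.66 to −0.03), of the same sign as in the clone and within 2-fold. Il10 had a log2 ratio of 0.66 (interval 0.34 to 0.98) and Tigit of 0.25 (interval 0.10 to 0.40). The effector Treg list had a median of −0.0046 over 20 genes, and the cell cycle list of 0.59 over 8 genes, opposite in sign to the comparison with single-cell clonotypes. The comparison group differs in kind, since the 1904 cells can include expanded clones whose contigs were not recovered, and the 155 cells can include cells outside the clone.

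**Figure D5:**
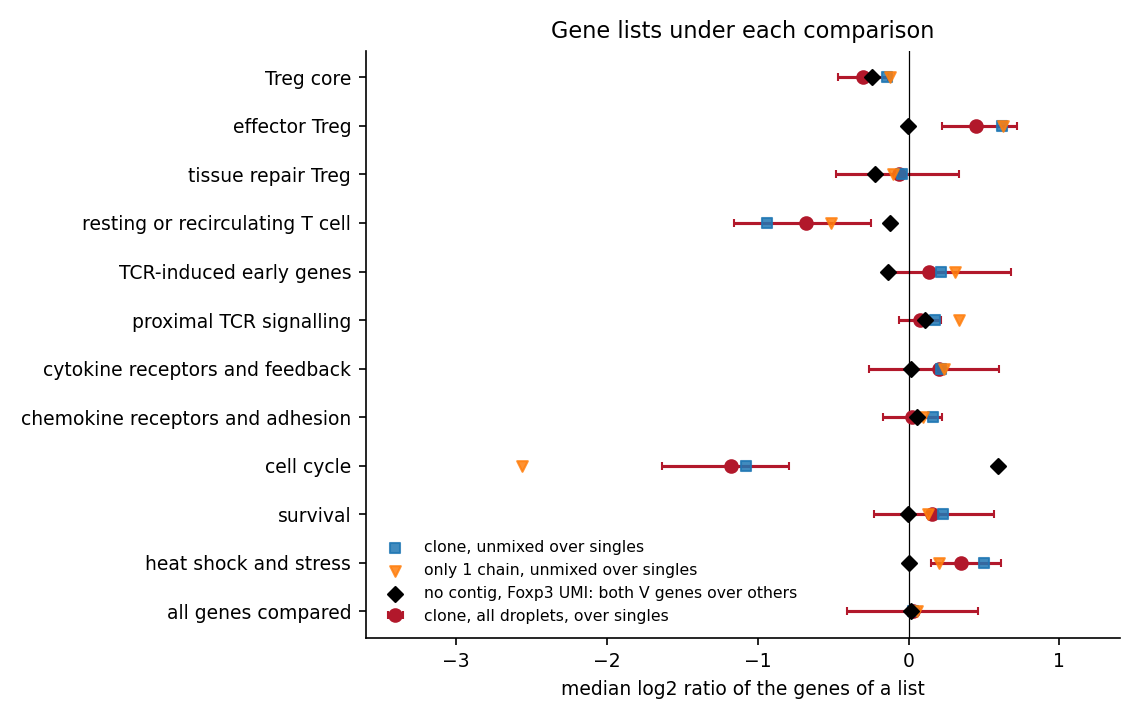
Points give the median log2 ratio over the genes of each list (rows) under 4 comparisons, and red lines span the medians of the 95% intervals of the genes for all clone droplets. The effector Treg list lies above 0 against single-cell clonotypes (0.45) and at 0 among cells without a contig, and the cell cycle list at −1.18 and 0.59.

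Within the clone, some genes were found in about the share of cells that 1 common level would give, and others in fewer. A single level of Klrg1 in all clone cells, scaled to the depth of each, would leave 14.7% of cells without a UMI by Poisson counting, and 13.5% had none. For Foxp3 the values were 57.6% and 60.1%, for Tigit 19.2% and 22.4%, and for Ccr3 68.1% and 71.5%. The share of clone cells without Foxp3 was thus close to that of 1 common level read at this depth. With so few UMIs of Foxp3 or Ccr3 per cell, however, this share cannot separate an even level from an uneven one. Ccl4 was uneven, with no UMI in 73.0% of cells against 4.04% for a common level, and in 79.9% against 40.9% without mixed droplets, as was Mt1 with 78.6% against 50.8%. Mki67 had none in 92.5% against 75.9%. Variance beyond Poisson, relative to the squared mean, had a median of 0.258 over 3514 genes in the clone and 0.225 in the single-cell clonotypes, of 0.225 in the clone without mixed droplets and of 0.0419 in clone cells with 800 to 1600 UMIs. Over all clone droplets, the 10 genes with the largest such variance were Ngp, S100a8, Lcn2, Camp, S100a9, Ltf, C1qc, Anxa1, C1qb and C1qa, mostly genes of neutrophils and macrophages. Ngp, S100a8, Lcn2, Camp, S100a9 and Ltf had no UMI in the clone once mixed droplets were left out. The 10 genes were then BC018473, Atf3, Ccl4, Ube2c, Wfdc17, Hist1h2ae, Anxa1, Vav3, Mt1 and Mki67. A single droplet held 794 UMIs of S100a9, and all 322 UMIs of Ngp were in 1 droplet.

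Clone cells with and without a Foxp3 UMI differed by 2-fold in few genes. Of 3603 compared genes, 44 (1.22%) were at least 2-fold higher in the 112 cells with a Foxp3 UMI and 32 (0.888%) at least 2-fold lower, with a median log2 ratio of 0.02. The higher genes included the myeloid markers Lyz2 (693 and 315 CPM), Apoe (333 and 149 CPM) and C1qb (218 and 41.3 CPM), and 15 of the 112 and 22 of the 169 cells were mixed droplets. Without these, 25 of 3098 genes (0.807%) were higher, with 14 of the 44 among them, and 23 (0.742%) lower, with 5 of the 32. Tigit stood at 1109 CPM in both, Ctla4 at 2155 and 2218 CPM, and Klrg1 at 1258 and 1401 CPM (log2 ratio −0.16, interval −0.36 to 0.05). Ikzf2 had a log2 ratio of 0.17 (interval −0.11 to 0.46) and Il10 of −0.32 (interval −0.82 to 0.16). Of 8 compared cell cycle genes, 2 were at least 2-fold higher in cells with a Foxp3 UMI and 0 lower, with a median log2 ratio of 0.35. They were Mki67 (log2 ratio 1.20, interval 0.52 to 1.92) and Top2a, a DNA topoisomerase of dividing cells (1.79, interval 1.002 to 2.64), at 1.12 and 1.30 without mixed droplets. Ube2c stood at 52.0 and 54.0 CPM, and Pttg1, the securin of mitosis that was not on the list, was lower (−1.13, interval −1.94 to −0.36, and −0.97 without mixed droplets). Cells with a Foxp3 UMI were deeper, with a median of 1769.5 UMIs against 1233, and the part of depth in this was not tested.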

How the data were processed

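Counts in the matrices, as deposited by the authors, are UMIs per gene and cell from Cell Ranger 7.0.1 (file header) on mm10 (submitters' processing notes). Contig tables of the authors give the receptor chains of each cell and the UMIs behind each. CPM are UMIs summed over a group and scaled to 1000000. Ratios have conditional binomial intervals, levels exact Poisson intervals and shares Clopper-Pearson intervals. A sum of 603422 UMIs in the clone allows up to 4.97 CPM at a count of 0 (3 UMIs), and 1324159 in the single-cell clonotypes up to 2.27. Named genes were list and marker genes, plus the 15 at each end of the log2 ratio and the 10 with the largest variance beyond Poisson, without genes of T cell receptors, antibodies, mitochondria and ribosomal proteins. The 10 with the largest such variance without mixed droplets were named as well. Others were named after their values were seen: Ccr1, Kctd12, Lilrb4a, Lilr4b, Metrnl, H2-Aa, Lgmn, Nrn1 and Pttg1. The members, lists and rules were chosen with earlier results of these data known. Droplets with a second TRB, together with the highest Scrublet scores (0.8 percent per 1000 cells), were left out as an alternative only, since the automatic threshold of Scrublet marked 0 cells. Thinning used seed 1. The comparison was tested on simulated data. Python 3.11.15, numpy 2.4.6, scipy 1.17.1, pandas 2.3.3, scanpy 1.11.5, matplotlib 3.10.9 and edgeR 4.0.16 in R 4.3.3 (TMM factors alone) were used. Segment positions are from GENCODE M21 on GRCm38. Some genes of the lists are not reported here by name.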

Additional observations from a re-analysis of the deposited data

Results flagged for a closer look

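Receptor V genes were outside the main comparison. In the library labelled dKO, 386 of 12565 cells without a contig had UMIs of both Trav6-1 and Trbv13-1. In the library labelled WT 0 of 10556 cells did, with or without a contig, but only 14 of those had a Trav6-1 UMI. Of the 386 dKO cells, 172 (44.6%) had a Foxp3 UMI. Without the 37 mixed droplets among them, 78.8% had a Klrg1 UMI and 26.9% a Ccr3 UMI, against 21.1% and 4.02% of the other 7816 cells without a contig or markers of myeloid or plasmacytoid dendritic cells. A Foxp3 UMI was found in 44.4% and 24.4% of these groups.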

How the results depend on the processing

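No paired analysis was possible because each genotype had 1 library. The size of the clone stayed between 10.5% and 12.0% of its denominator under the 6 alternatives, within its counting interval, and the WT count stayed at 0 under both of its alternatives. The 116 higher genes became 27 of 1520 (1.78%) among cells with 800 to 1600 UMIs (30 of 1513, or 1.98%, without mixed droplets too), 63 of 1843 (3.42%) with at least 100 CPM and no UMI minimum, and 59 (1.62%) for cells with no contig and UMIs of both V genes. The 85 lower genes became 53 (1.46%) with a Foxp3 UMI in both groups and 33 (1.79%) with at least 100 CPM. Among cells with no contig, the 16 higher and 24 lower genes became 48 (3.95%) and 3 (0.247%) of 1216 at 800 to 1600 UMIs, and the lower ones 52 (1.43%) with mixed droplets kept. The Treg core median became −0.097 with Foxp3 in both groups, −0.093 at 800 to 1600 UMIs (−0.097 without mixed droplets) and 0.35 against other clones of at least 30 cells. Against those clones the effector Treg median was 0.032, that of resting T cells 0.85 and that of the cell cycle −0.36. The resting T cell median was −1.66 without predicted doublets, which marked 14.2% of clone cells and 37.4% of single-cell clonotypes. The cell cycle median was −2.57 for cells with only 1 chain and −1.75 for cells with no contig and both V genes. Foxp3 was found in 15.3%, 35.1% and 39.9% of clone cells when thinned to 500 or 1500 UMIs or not thinned, and in 58.0% with Foxp3 required. Tigit was found in 45.9% at 500 UMIs, 77.6% unthinned and 70.1% without mixed droplets. The median variance beyond Poisson was 0.0419 at 800 to 1600 UMIs.

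Of the 57 named genes followed through the settings, 16 changed sign somewhere, in 22 of 753 values. Against other clones these were Emb (0.20), Lmna (0.74), Il2ra (2.17, on few UMIs), S1pr1 (1.26, on few UMIs), Bach2 (0.71), Ccl4 (−0.39) and Gpr183 (0.037). Without mixed droplets they were Alox5ap (−1.91), C1qc (−1.59) and Ly6d (−1.76). At 800 to 1600 UMIs they were Hmgb2 (0.86), Bst2 (−0.21) and Ly6d (−1.05), and with mixed droplets left out as well Hmgb2 (0.84), Bst2 (−0.26), Ly6d (−0.999), C1qb (−0.41) and Lrrc32 (0.0013), of which Ly6d, C1qb and Lrrc32 had at most 6 UMIs in either group. Penk was at 0.35 for cells with only 1 chain, Ly6d at −0.24 without predicted doublets, and in cells with no contig Ly6d was at −0.038 and Ccr9 at −0.0049. The cause was not tested. TMM scaling moved all log2 ratios by 0.05. Alternatives without mixed droplets, with 1 chain or with V genes were chosen after seeing the data.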
